A study of Homo sapiens with 13 samples.

Results

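The genes described here encode CXCL8, CXCL2, CXCL3, CXCL1 and CXCL5, which attract neutrophils, and CCL20, which attracts lymphocytes and dendritic cells. They were chosen by name as a group of secreted chemokines, with earlier results of these data known. The 6 genes are among 11963 genes with a probe set of their own on the arrays, and 5 of them (all but CXCL5) are among the 7731 that passed a filter on dim genes. The cells were MCF10A, a human mammary epithelial line that was immortalized spontaneously and is not tumour derived. The experiment therefore describes 1 cell line. Per the labels, all cells were first kept without serum for 24 h. Cells were then given EGF (6 arrays) or the serum mixture (6 arrays) for 20, 40, 60, 120, 240 or 480 min, or were left unstimulated (1 array). The mixture, called serum here, held horse serum, insulin, hydrocortisone and cholera toxin. EGF was also part of the medium in which all cells had been grown, and its dose for the stimulation itself was not given apart from that.

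CXCL8 (interleukin 8), CXCL1, CXCL2, CXCL3 and CXCL5 carry the ELR motif and signal through CXCR2, and CXCL8 also through CXCR1, on neutrophils. CCL20 signals through CCR6. Epithelial cells make all of them after inflammatory signals. Their genes are known targets of the transcription factor NF-kB, helped at CXCL8 by AP-1 and C/EBP proteins, and several of their short-lived mRNAs carry AU-rich elements through which decay factors such as ZFP36 act.

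The CXC genes lie in 1 cluster on chromosome 4 and CCL20 on chromosome 2. The stretches shown next run from 120 bases before to 10 bases after the annotated transcription start (RefSeq, GRCh38.p14), 5′ to 3′ on the gene's strand. They are shown because each holds a kB element, with GGAATTTCC in the CXC genes and other letters in CCL20. Capitals mark the element that matched the NF-kB consensus or its shorter form GGAATTTCC.
CXCL8, chr4:73740449-73740578, plus strand: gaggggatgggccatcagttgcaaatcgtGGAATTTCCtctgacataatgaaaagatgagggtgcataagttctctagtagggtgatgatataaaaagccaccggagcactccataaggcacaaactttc
CXCL2, chr4:74099186-74099315, minus strand: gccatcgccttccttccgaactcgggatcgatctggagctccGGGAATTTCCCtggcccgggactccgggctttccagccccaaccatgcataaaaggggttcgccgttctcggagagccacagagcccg
CXCL3, chr4:74038680-74038809, minus strand: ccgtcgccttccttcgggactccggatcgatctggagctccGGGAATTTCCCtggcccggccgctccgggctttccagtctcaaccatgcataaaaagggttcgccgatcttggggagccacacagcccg
CXCL1, chr4:73869273-73869402, plus strand: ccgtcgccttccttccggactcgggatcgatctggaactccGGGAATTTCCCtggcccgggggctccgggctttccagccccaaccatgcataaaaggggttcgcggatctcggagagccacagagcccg
CXCL5, chr4:73998668-73998797, minus strand: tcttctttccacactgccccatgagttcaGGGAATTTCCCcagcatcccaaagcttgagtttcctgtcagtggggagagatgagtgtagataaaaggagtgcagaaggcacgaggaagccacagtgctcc
CCL20, chr2:227813722-227813851, plus strand: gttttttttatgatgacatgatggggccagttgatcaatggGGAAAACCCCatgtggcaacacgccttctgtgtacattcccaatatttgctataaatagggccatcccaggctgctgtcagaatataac

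Promoters of all 6 genes were in the table, and motifs were searched on both strands over 250 bases before to 50 after each start. GGAATTTCC was found in the 5 CXC promoters and not in that of CCL20, against 0.461% of 35116 promoters of the same length. It began 78 bases before the start in CXCL1 and CXCL3, 77 in CXCL2, 90 in CXCL5 and 91 in CXCL8. The longer NF-kB consensus was found in 5 of the 6, overlapping GGAATTTCC in CXCL1, CXCL2, CXCL3 and CXCL5 and lying on the opposite strand in CCL20, against 11.3% of all promoters. The AP-1 motif TGANTCA was found in 1 promoter, that of CXCL8, 137 bases before the start (7.71% of all). The C/EBP motif TTGCNNAA was found in that of CXCL2 (10.5% of all), TATAAA in those of CXCL8 and CCL20 (11.5% of all) and the CRE TGACGTCA in 0 of 6 (1.85% of all). A match to letters is a description of the window and was not tied to binding. The motifs came from textbook knowledge and these genes are known NF-kB targets, so the shares are background and not a test. Matches shared by CXCL1, CXCL2 and CXCL3 are not separate finds, as their promoters are alike. The promoters of CXCL1 and CXCL3 were 82.5% identical over their alignment, those of CXCL2 and CXCL3 73.8% and those of CXCL1 and CXCL2 71.9%, while the other 12 pairs lay between 45.2% and 55.4%.

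Each array gave 1 MAS5 signal per probe set, a linear brightness that the authors had scaled to the same trimmed mean on every array (150.0). Signals are quoted as deposited. Differences are on the log2 scale, log2(signal + 6) after quantile normalization, and understate the change of dim genes. No condition had a replicate array. Tests took neighbouring times, or the EGF and serum arrays of a time, as the replicates, so p-values measure only the spread between these arrays. Adjusted p-values are two-sided, from limma, over all 7731 genes, with a threshold of 0.05. The serum array of 20 min had 33.3% of probe sets under a signal of 20, against 36.8% to 40.0% on the other arrays, and the labels of the EGF array taken here as 20 min conflict (20 min by title, 40 min by description). The basal epithelial markers that could be measured (4 of 6: KRT5, KRT14, LAMB3 and ITGB4) had signals of 2097 to 6975, and 4 of 4 general epithelial markers were above the filter. All 3 endothelial markers were below the filter (1.2 to 36), as were 6 of 8 leukocyte markers, with PTPRC at 0.3 to 12.8. The leukocyte markers above it were CD14 (86.1 to 286.2) and CSF1R (25.7 to 74.4). Of 4 fibroblast markers 3 were above it, DCN (139.6 to 405.4), COL1A1 (22.4 to 77.7) and PDGFRB (7.7 to 33.6), and COL3A1 was not (0.4 to 15.8). In such bulk RNA, fewer cells making a transcript and less of it per cell cannot be told apart.

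CXCL8, a potent neutrophil attractant, was the member on which the arms differed past the threshold. It was above the unstimulated level under both stimuli in the first hour, stayed high for 480 min after EGF and was back at the unstimulated level by then after serum. Its probe set 202859_x_at had signals of 1559, 2390.2, 3395, 2945, 2441 and 2006 at 20, 40, 60, 120, 240 and 480 min after EGF, and 1399.7, 1581, 1592, 1331, 932 and 575 after serum, against 556 in unstimulated cells. The EGF array was brighter at every time, and all 6 EGF arrays and 4 of the 6 serum arrays were at least 2-fold above the unstimulated array. The highest point was at 60 min in both arms, 2.53 above unstimulated (5.77-fold) after EGF and 1.46 (2.75-fold) after serum. At 480 min CXCL8 stood 1.87 above unstimulated after EGF and 0.03 above it after serum.

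The gap between the arms was larger on later arrays. EGF minus serum for CXCL8 was 0.06, 0.59, 1.07, 1.11, 1.48 and 1.84 at the 6 times in order. In the late arrays (120, 240 and 480 min) CXCL8 averaged 11.28 ± 0.24 after EGF and 9.80 ± 0.60 after serum (log2, SD, n = 3 each). Values ran from 11.02 to 11.49 after EGF and from 9.18 to 10.38 after serum. The difference of 1.48 (SE 0.21, 2.79-fold) passed the threshold in limma with time as a block (adjusted p = 0.0442). In that comparison 1 of the 5 members tested was called, against 0.75% of all genes. In the early arrays (20, 40 and 60 min) the difference was 0.57 (SE 0.21, adjusted p = 0.309), and over all 6 times it was 1.03 (SE 0.21, adjusted p = 0.0756). The test of whether the late gap exceeded the early one did not pass the threshold (0.91, SE 0.30, adjusted p = 0.391). The late call is fragile: it was lost in 8 of 12 fits that each left out 1 array (either array of 40, 120, 240 or 480 min), and the adjusted p was 0.148 with no filter on dim genes, 0.056 with no offset and 0.0546 with the mean of the probe sets. The direction held in all of these. With time as a block, leaving out either array of a time gave the same fit, so the 12 fits are not 12 separate checks.

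CXCL8 had another probe set, 211506_s_at, which gave a second measurement on the same arrays. Its signals were 361, 709.6, 1005, 905, 965.5 and 545 in order of time after EGF, and 459, 521, 574, 470.4, 285 and 229.7 after serum, against 211 in unstimulated cells. EGF was the higher arm at 5 of 6 times, and at 20 min serum was (EGF minus serum -0.36). On this probe set EGF minus serum was 1.71 at 240 min and 1.18 at 480 min, so the gap did not grow up to the last array. With this probe set in place of the brighter one the late difference was 1.27 (adjusted p = 0.0763).

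**Figure D1:**
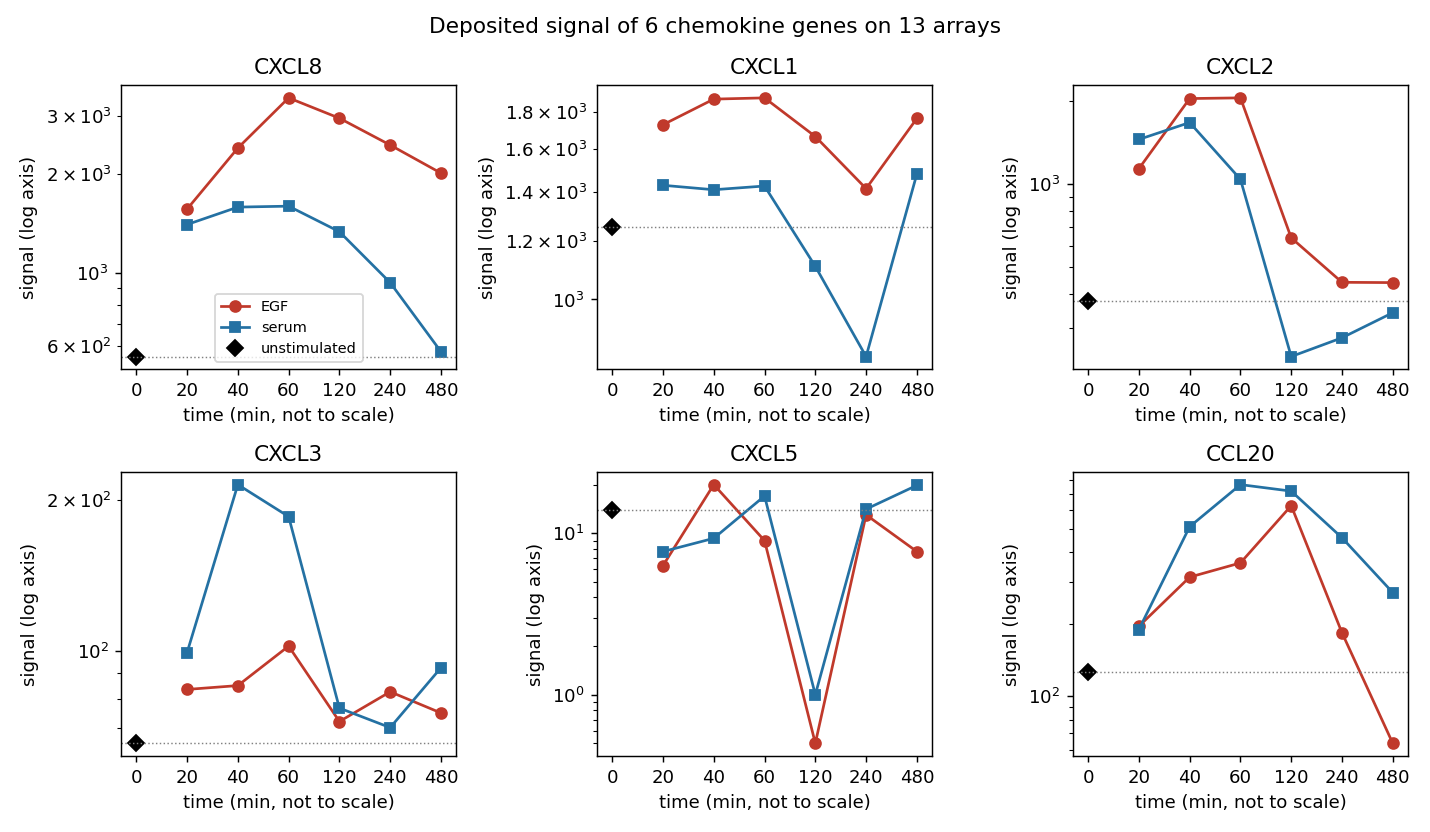
Deposited MAS5 signal (log axis) of the 6 chemokines against time after stimulation in min, 1 point per array, with times evenly spaced, EGF and serum as lines and the unstimulated array as the diamond and dotted level. CXCL8 ended at 2006 after EGF and 575 after serum, CCL20 at 63.7 after EGF and 271 after serum, and CXCL2 near its unstimulated level of 378 in both. The signals of CXCL5 lay between 0.5 and 20, below the filter, so its swings on the log axis are those of a dim probe set.

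CXCL2 (GRO beta) showed a transient course under both stimuli. Its probe set 209774_x_at had signals of 1140.5, 2049.5, 2061, 639.7, 441 and 440.1 in order of time after EGF, and 1456, 1677.5, 1043, 237, 277.5 and 342 after serum, against 378 in unstimulated cells. All 6 early arrays were at least 2-fold above the unstimulated array, and none of the 6 late ones was. The highest points were 2.43 above unstimulated (5.39-fold) at 60 min after EGF and 2.10 (4.28-fold) at 40 min after serum. At 480 min CXCL2 was 0.19 above unstimulated after EGF and 0.14 below it after serum.

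CXCL2 was lower in late than in early arrays by every fit of that contrast. It averaged 8.96 ± 0.33 late and 10.71 ± 0.48 early after EGF, and 8.18 ± 0.25 late and 10.43 ± 0.35 early after serum (log2, SD, n = 3 each). Late and early arrays did not overlap in either arm, and the share of all genes of which this held was not counted. Late minus early was -1.998 over both arms (SE 0.19, adjusted p = 0.0029), -1.75 after EGF (SE 0.26, adjusted p = 0.0306) and -2.25 after serum (SE 0.26, adjusted p = 0.00641). CXCL2 was the 1 member called in each, against 3.47% of all genes over both arms, 0.259% after EGF and 1.33% after serum. The call over both arms and that in serum held in each of 12 fits without 1 array, whereas the call after EGF was lost in 6 of 12 (EGF arrays of 40, 60, 240 or 480 min, serum arrays of 20 or 240 min) and with no filter on dim genes (adjusted p = 0.0701). EGF minus serum was 0.54 over all times (SE 0.21, adjusted p = 0.212) and 0.78 in the late arrays (SE 0.29, adjusted p = 0.227), with EGF the higher arm at 5 of 6 times.

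CXCL3 (GRO gamma) was at least 2-fold above the unstimulated array on 2 arrays, both from serum. Its signals were 83.6, 85.1, 102, 72.1, 82.7 and 75 in order of time after EGF, and 99.1, 215, 186, 76.7, 70.1 and 92.4 after serum, against 65.2 in unstimulated cells. All 12 stimulated arrays lay above the unstimulated one, and the serum arrays of 40 and 60 min stood apart from the rest. The highest serum value was 1.78 above unstimulated (3.43-fold) at 40 min, and the highest EGF value was 0.71 (1.63-fold) at 60 min. EGF minus serum was -1.31 at 40 min and -0.86 at 60 min, and between -0.32 and 0.16 at the other 4 times. In the early arrays it was -0.77 (SE 0.22, adjusted p = 0.23), and late minus early in serum was -0.89 (SE 0.25, adjusted p = 0.0906). Neither passed the threshold. Without both arrays of 20 min late minus early in serum was -1.25 and passed.

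CXCL1 (GRO alpha) stayed within 2-fold of the unstimulated level on every array. Its signals were 1728, 1872, 1879.6, 1666, 1415 and 1762 in order of time after EGF, and 1429.7, 1409.9, 1426, 1109, 836 and 1481 after serum, against 1253 in unstimulated cells. All 6 EGF arrays were above the unstimulated array, and 4 of 6 serum arrays were, the exceptions being 120 and 240 min. The difference from unstimulated was 0.49 (1.41-fold) at its highest after EGF, at 60 min, and the lowest value was -0.69 at 240 min after serum. EGF was the higher arm at 6 of 6 times, by 0.19 to 0.78. The difference over all times was 0.46 (SE 0.09, adjusted p = 0.0697) and that in the late arrays 0.57 (SE 0.12, adjusted p = 0.0888), both short of the threshold. The difference over all times passed under 3 of 10 other processing settings.

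The transcripts of CXCL1, CXCL2 and CXCL3 are close copies of each other. The suffix _x_at on the probe sets of CXCL2 and CXCL8 marks probes that can also bind related transcripts, so how far a signal belongs to 1 of these paralogs alone is uncertain. The measured courses differed: CXCL2 passed 5-fold on arrays where CXCL1 and CXCL3 did not reach 2-fold.

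CXCL5, another CXCR2 ligand, was not measured above the filter. Its brightest probe set, 214974_x_at, had signals of 0.5 to 20 after EGF and 1 to 19.8 after serum, against 14 in unstimulated cells. Its other probe sets ranged from 0.3 to 18.2. Fitted without the filter, CXCL5 passed the threshold in 0 of 13 comparisons, with 0.455 as its lowest adjusted p (limma).

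CCL20, the CCR6 ligand, was higher after serum than after EGF at each late time, the opposite order of the arms to CXCL8. Its signals were 196, 314.5, 360.5, 625, 184 and 63.7 in order of time after EGF, and 190.1, 511, 765, 718.5, 459 and 271 after serum, against 126 in unstimulated cells. After EGF it was highest at 120 min (2.35 above unstimulated, 5.09-fold) and lay below the unstimulated array at 480 min (-0.82). After serum it was highest at 60 min (2.61, 6.12-fold) and was still 1.15 above unstimulated at 480 min. Of the 5 genes above the filter, CCL20 had the latest EGF peak and, after serum, the largest fold on a single array.

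EGF minus serum for CCL20 was 0.08, -0.65, -1.05, -0.19, -1.31 and -1.97 in order of time, with serum the higher arm at 5 of 6 times. The late difference was -1.15 (SE 0.35, adjusted p = 0.16), the early one -0.54 (SE 0.35, adjusted p = 0.514) and that over all times -0.85 (SE 0.25, adjusted p = 0.139). No difference for CCL20 passed the threshold. Late and early arrays overlapped in both arms, and late minus early was -0.20 (SE 0.51, adjusted p = 0.838). Its highest EGF array (120 min) was among the late ones and its highest serum array (60 min) among the early ones.

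**Figure D2:**
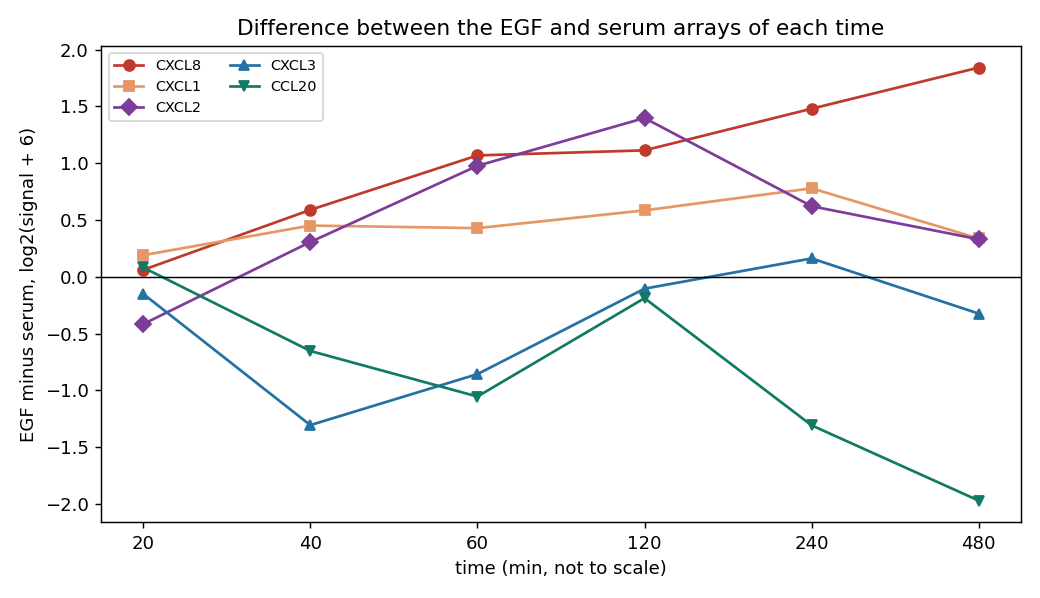
EGF minus serum (log2) at each time in min (evenly spaced) for the 5 chemokines above the filter, with 0 as the line of equal arms. CXCL8 stood at 1.84 and CCL20 at -1.97 at 480 min, CXCL1 lay between 0.19 and 0.78, and CXCL3 was lowest at 40 min (-1.31).

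Set against the unstimulated array, several members were high in the first hour, but no response passed the threshold. On single EGF arrays 2, 3, 3, 2, 1 and 1 of the 5 members tested were at least 2-fold higher at 20, 40, 60, 120, 240 and 480 min, against 1.01%, 1.25%, 1.37%, 1.99%, 1.32% and 1.51% of all genes. On single serum arrays the numbers were 2, 4, 4, 2, 1 and 1, against 1.63%, 1.71%, 2.33%, 2.38%, 2.28% and 1.95%. At 480 min the 1 member was CXCL8 after EGF and CCL20 after serum. On no array was a member above the filter 2-fold lower. These are single arrays with no test.

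In the limma fit of both arms together (n = 2) against the lone unstimulated array (n = 1), 0 of 5 members were called at any time. Of all genes 0.0259% were called at 20 min, 0.0776% at 40 min, 0.0776% at 60 min, 0.0259% at 120 min, and 0% at 240 and 480 min. CXCL2 stood at 2.25 at 40 min (SE 0.45, adjusted p = 0.275), CXCL8 at 1.99 at 60 min (SE 0.46, adjusted p = 0.29) and CCL20 at 2.44 at 120 min (SE 0.54, adjusted p = 0.225). At an unadjusted p under 0.05 there were 2, 4, 4, 2, 1 and 0 of 5 members in order of time, and 456, 544, 575, 715, 752 and 910 of all 7731 genes. The members' median was 1.94 at 60 min, when the median of all genes was -0.01, and 0.30 at 480 min, when that of all genes was 0.03.

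For the comparison of the arms, limma called 0.129% of all genes over all times and 0% in the early arrays. It called 0.0259% in the test of whether the gap between the arms changed from early to late. No member was called in any of these, and 4, 3 and 1 of 5 had an unadjusted p under 0.05, as did 1588, 1115 and 862 of all 7731 genes. The medians of the 5 members were 0.57 in late EGF minus serum, 0.29 in early, and -0.32 in late minus early, with all-gene medians of 0.01, -0.01 and 0.02. The members' directions differed: in the late arrays CXCL8, CXCL2 and CXCL1 were higher after EGF, CCL20 was higher after serum and CXCL3 stood at -0.09.

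**Figure D3:**
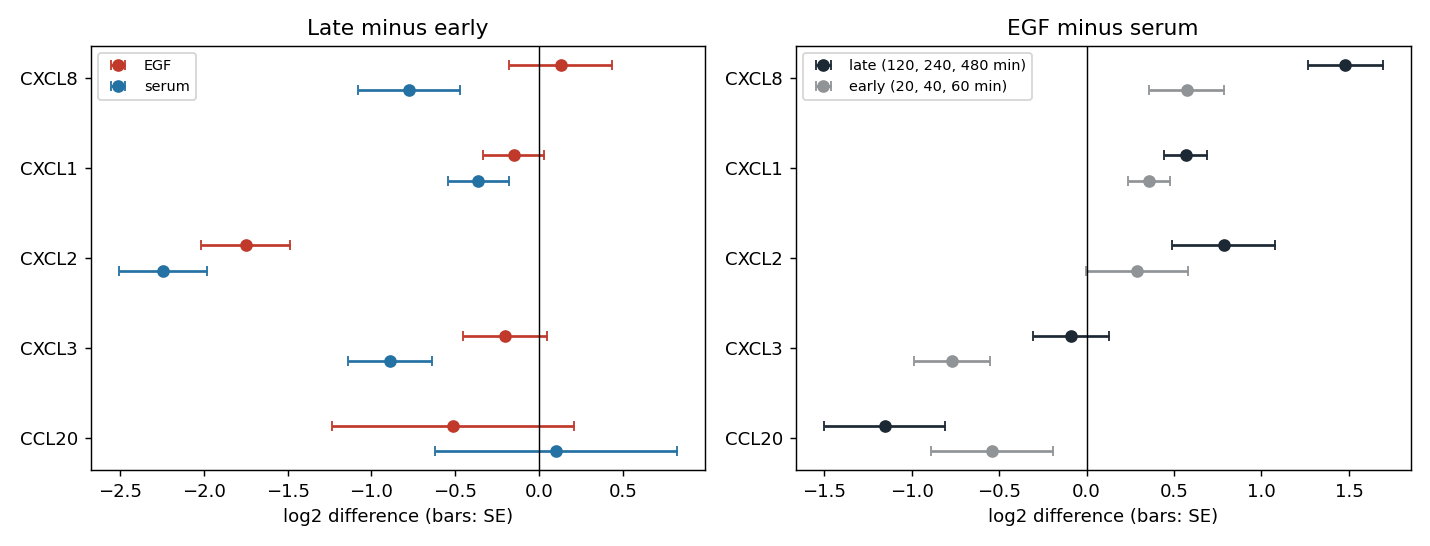
Log2 differences for the 5 chemokines above the filter, late minus early after EGF and after serum (left) and EGF minus serum in late and early arrays (right). Points are limma estimates and bars 1 standard error each way. Those past the threshold of 0.05 were CXCL2 late minus early at -1.75 after EGF and -2.25 after serum, and CXCL8 late EGF minus serum at 1.48.

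The members did not follow 1 common course. Over the 13 arrays Pearson's r between pairs ran from -0.36 (CXCL1 with CCL20) to 0.61 (CXCL1 with CXCL2), a description over arrays that share the same time course. Within each arm r was lowest for CXCL1 with CCL20 (-0.01 after EGF, -0.37 after serum). It was highest for CXCL2 with CXCL3 (0.72 after EGF, 0.74 after serum), a pair at 0.51 over the 13 arrays. The genes whose profiles were most like each member were TSPAN1 (0.941), TCTN3 (0.917) and TMEM230 (0.909) for CXCL2, and ENC1 (0.906), GDI2 (0.899) and EIF2S3 (0.891) for CXCL8. They were C1orf116 (0.915), ATP10B (0.894) and GBP1 (0.874) for CCL20. For CXCL1 they were CENPF (0.870), VAC14 (0.867) and MDH1 (0.865), and for CXCL3 OXA1L (0.859), TRIB1 (0.856) and WEE1 (0.853). The mean standardized profile of the 5 members was most like those of CYBRD1 (0.917), EGR1 (0.912), TSPAN1 (0.894), CCN2 (0.891) and LTA4H (0.887), followed by ADAM15, EGR3, SYPL1, SLC41A3 and MGST2 (0.885 to 0.858). ENC1, which encodes an actin-binding protein, was 1.68 above unstimulated at 120 min after EGF and 0.08 below it after serum. Likeness here is of shape and not of size. TSPAN1 was at most 0.35 above unstimulated (EGF, 40 min) and GDI2 at most 0.28 (EGF, 120 min), whereas EGR1 reached 2.72 (EGF, 40 min) and TRIB1 2.56 (serum, 60 min). All were picked as the highest r among the genes tested.

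The receptors of these ligands were barely measured in the cells. CXCR1, CXCR2, CCR6 and the decoy receptor ACKR1 were below the filter. CXCR4 and ACKR3, which bind CXCL12, were tested and not called in any comparison. Of 26 other chemokines on the array, 2 were above the filter (CXCL10 and PPBP), and neither was called. CXCL10, an interferon-induced attractant of T cells, was at -1.81 in late EGF minus serum (SE 0.40, adjusted p = 0.0914).

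Upstream of these genes, 1 of 11 inflammatory cytokines and receptors tested was called in late EGF minus serum (0.75% of all genes were) and none in the other comparisons. IL1B, an inducer of neutrophil chemokines, was higher after EGF than after serum in the late arrays (1.05, SE 0.16, adjusted p = 0.0453), the same contrast as for CXCL8. The call was kept in 6 of 10 other settings and in 0 of 12 fits without 1 array, where either array of a time gave the same fit. The list's median there was 0.24. Of 14 NF-kB subunits and feedback genes tested, 0 rose and 2 fell in late minus early, against 130 and 138 of all 7731 genes: NFKBIA, the inhibitor that NF-kB itself induces (-0.53, SE 0.12, adjusted p = 0.0378), and REL, a subunit (-0.50, SE 0.09, adjusted p = 0.0185). The list's median was 0.03. The NFKBIA call was kept in 3 of 12 fits without 1 array and in 7 of 10 other settings. In late EGF minus serum no gene of this list was called by limma. NFKBIA was at -0.95 there (SE 0.18, adjusted p = 0.0763) and NFKBIE at 0.48 (SE 0.28, adjusted p = 0.404), and the list's median was 0.11. The REL call was kept in 12 of 12 and 6 of 10. Averaging the REL probe sets gave -0.30 (adjusted p = 0.257). In serum alone REL was at -0.70 (adjusted p = 0.029), kept in 7 of 12 fits without 1 array and 6 of 9 settings, with -0.43 when its probe sets were averaged (adjusted p = 0.301).

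Of 8 AP-1 factors tested, 0 rose and 3 fell in late minus early, where 3.47% of all genes were called (FOS -2.58, FOSB -2.58 and ATF3 -1.88, with adjusted p-values of 0.0389, 0.0254 and 0.0292), and the list's median was -0.63. Without 1 array the calls were kept in 3, 6 and 5 of 12 fits, and in 5 of 10, 6 of 8 and 7 of 9 other settings. FOSB (-3.81) and ATF3 (-2.93) also passed in serum alone (adjusted p = 0.0348 for each). Each of these calls was kept in 5 of 12 fits without 1 array, and both were lost with no filter (0.086) and without both 20 min arrays (0.106 for FOSB, 0.071 for ATF3). Of 10 factors of AU-rich mRNA decay and stability tested, 0 were called in any of the 13 comparisons. ZFP36, which promotes decay of such mRNAs, was at -0.92 in late EGF minus serum (SE 0.16, adjusted p = 0.0687). CD14, a leukocyte marker that these cells also gave signal for (86.1 to 286), was lower in late than in early arrays (-0.79, SE 0.15, adjusted p = 0.0219). That call was kept in 8 of 12 fits without 1 array and 8 of 10 settings, and was lost with no filter (0.0543) and without both 20 min arrays (0.0714). Whether any of the genes in these lists had a part in the chemokine results was not tested.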

How the data were processed

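MCF10A RNA was measured on 13 Affymetrix arrays, 1 per stimulus and time. The deposited values are intensities, 1 MAS5 signal per probe set on a linear scale, per the submitters' processing notes, which name no version. Of 22277 probe sets, 62 controls were dropped, and log2(signal + 6) was brought to common quantiles (limma 3.58.1, R 4.3.3). Of the other 22215 probe sets, 19064 carried 1 symbol in the platform annotation, 1043 several and 2108 none. Each gene was read from its brightest probe set, kept if its mean reached the 40th percentile (4.68). Models were fitted with lmFit and eBayes: time and stimulus (5 residual degrees of freedom), stimulus by phase (8), and stimulus with time as a block (5, or 4 within phases). The Benjamini-Hochberg adjustment was made within each comparison. The procedure was tested on simulated data. The members and lists were chosen with earlier results of these data known. Named genes were the members, the 3 genes most correlated with each, the 10 most correlated with their mean, and from each list those called or else the 2 largest. Motifs came from textbook knowledge. Other settings were the offset, normalization, filter, probe set rule, variance trend, coding of time and arrays left out. Added after seeing the data were both 20 min arrays left out and the other CXCL8 probe set. Promoters (RefSeq, GRCh38.p14) were searched and aligned with Python 3.11.15 and Biopython 1.88; figures were drawn with matplotlib 3.10.9.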

Additional observations from a re-analysis of the deposited data

Results flagged for a closer look

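CXCL2 ended on opposite sides of the unstimulated array in the 2 arms. Every late EGF array (120, 240 and 480 min) was above it and every late serum array was below it, and the EGF mean exceeded the serum mean by 0.78 on the log2 scale. That opposition of direction was not tested, and all 6 late arrays were set against the same unstimulated array. The limma comparison of late EGF with late serum gave an adjusted p of 0.227 for CXCL2.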

How the results depend on the processing

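The CXCL2 fall in late minus early passed the threshold in 10 of 10 other settings and 12 of 12 fits without 1 array (-2.14 to -1.93), and its serum part in 9 of 9 and 12 of 12. The late CXCL8 difference passed in 6 of 10 and 4 of 12 (1.27 to 1.66, adjusted p 0.00661 to 0.171 in limma). It was lost without either array of 40, 120, 240 or 480 min, and either array of a time gave the same fit. The setting without both 20 min arrays repeated the fit without either of them. Members called in late EGF minus serum were 1 as reported, 0 with no offset, with no filter, with the mean of probe sets or with the other CXCL8 probe set, and 2 with the 60th percentile filter or a variance trend with robust variances. In EGF minus serum they were 0 as reported, 2 with an offset of 24 or the 60th percentile filter, and 1 with the trend, which also gave 1 in the early arrays. In late minus early they were 1 as reported and 2 with the trend or without both 20 min arrays, likewise in serum; after EGF they were 0 with no filter or without both 20 min arrays. Members at least 2-fold higher at 20 min after EGF were 2, and 1 with the other CXCL8 probe set. Without 1 array, members called ran from 0 to 1 in late EGF minus serum and in late minus early after EGF (lost without the EGF arrays of 40, 60, 240 or 480 min or the serum arrays of 20 or 240 min), and from 1 to 2 in late minus early and its serum part (2 without the serum array of 20 min). Signs turned without both 20 min arrays for values not called: CCL20 late minus early in serum (-0.46, against 0.10) and CXCL8 late minus early after EGF (-0.15, against 0.13). With 1 array left out, signs of uncalled values also turned within these ranges: CCL20 late minus early (-0.62 to 0.18), after EGF (-1.33 to 0.25) and in serum (-0.46 to 0.53), CCL20 at 480 min (-0.51 to 0.84), CXCL8 late minus early after EGF (-0.15 to 0.39), CXCL2 early EGF minus serum (-0.0549 to 0.64), CXCL2 at 120 min (-0.45 to 0.59) and 480 min (-0.10 to 0.15), CXCL1 at 120 min (-0.0441 to 0.10), CXCL3 late EGF minus serum (-0.21 to 0.0287) and CXCL3 at 240 min (-0.0005 to 0.71). The causes were not tested. Genes called over all settings ran from 56 to 647 in late minus early (268 as reported), 0 to 69 after EGF (20), 9 to 412 in serum (103), 0 to 554 in late EGF minus serum (58), 0 to 178 in early (0), 1 to 426 over all times (10) and 0 to 70 in the interaction (2). Against the unstimulated array they ran from 0 to 5 at 20 min (2), 1 to 20 at 40 min (6), 1 to 28 at 60 min (6), 1 to 26 at 120 min (2), 0 to 35 at 240 min (0) and 0 to 46 at 480 min (0). The EGF and serum arrays of a time were paired through the time block; without that block the late CXCL8 difference kept its call (adjusted p = 0.0378). The unstimulated array could not be left out. Signals near background, such as those of CXCL5, limit any statement on dim genes.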

Other observations

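All 3 CXCL5 probe sets gave very low signals on both arrays of 120 min. They were 0.5, 0.7 and 0.4 after EGF and 1, 0.3 and 0.9 after serum, against 14, 13.5 and 1.3 in unstimulated cells. All of these values were below the filter on dim genes. Low signals were not confined to 120 min. The probe set at 1.3 in unstimulated cells, 207852_at, was at 0.9 at 20 min and 0.6 at 240 min after EGF. The one at 13.5, 215101_s_at, was at 1.1 at 40 min after EGF. In the limma fit without the filter, the brightest probe set at 120 min was at -1.52 against unstimulated and did not pass (adjusted p = 0.455). The pattern over all 3 probe sets was seen after the values were known and was not tested.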
